A study of Mus musculus with 12 samples.

Results

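A set of 9 genes for secreted or membrane proteins, Mgp, Npy, Igfbp3, Pkdcc, Gas1, Kcnj8, Clca3a2, Aqp1 and Spns2, was followed through RNA sequencing of mouse peritoneal macrophages, the phagocytes of the abdominal cavity. They are 9 of the 55586 genes in the count table, and all 9 were among the 13474 that passed the count filter. They were selected on their counts in these libraries, for a clear fall with Remodelin both without and with interferon gamma (IFN-γ), and for being known mostly from cells other than macrophages. The values that chose them are those of Remodelin against control and, among libraries given IFN-γ, of Remodelin against none, and both are given as a description, with no test. The 12 libraries form 4 groups of 3: Remodelin hydrobromide followed by IFN-γ, Remodelin hydrobromide alone, IFN-γ alone, and untreated control. All were total RNA from cells kept in medium with fetal bovine serum. Remodelin is described as an inhibitor of the acetyltransferase NAT10, and IFN-γ is the classical activating cytokine of macrophages. Strain, age, sex, dose, time and animal are not in the labels, and whether the libraries of a group are separate cultures is not stated either. A p-value here thus speaks for the spread from library to library, and that spread can be technical.

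Secreted and membrane proteins are how a cell acts on its surroundings: some are released as signals, carriers or matrix, and others sit in the membrane as receptors, channels and transporters. The 9 genes belong to unrelated protein families. Mgp, matrix Gla protein, keeps soft tissue from calcifying, and Npy is a peptide transmitter of sympathetic nerves. Igfbp3 carries insulin-like growth factors, and Pkdcc is a kinase that travels the secretory pathway and phosphorylates proteins outside the cell. Gas1 is a membrane-anchored co-receptor for hedgehog ligands. Kcnj8 is the pore subunit Kir6.1 of an ATP-sensitive potassium channel, well known from vascular smooth muscle and pericytes, and Clca3a2 belongs to the CLCA family of chloride channel regulators. Aqp1 is a water channel of red cells, small vessels and mesothelium, and Spns2 exports the lipid signal sphingosine-1-phosphate from endothelial cells.

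The RefSeq promoter table (GRCm38.p6) held 8 of the 9 genes, and Mgp was not among them. In these 8 promoters, the 250 bases upstream of the annotated start were read for 5 short motifs on both strands. Here 2 of them are shown, those of the genes with the highest levels per length, Npy and Pkdcc. Capitals mark a motif match and each sequence runs 5′ to 3′ toward the start. Pkdcc lies at chr17:83215033-83215282 and Npy at chr6:49822460-49822709, both on the plus strand.

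Pkdcc: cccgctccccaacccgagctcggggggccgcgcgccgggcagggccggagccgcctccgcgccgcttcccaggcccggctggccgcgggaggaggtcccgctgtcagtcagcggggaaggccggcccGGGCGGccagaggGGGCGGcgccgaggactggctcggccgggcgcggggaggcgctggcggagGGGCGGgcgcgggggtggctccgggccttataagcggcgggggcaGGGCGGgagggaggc

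Npy: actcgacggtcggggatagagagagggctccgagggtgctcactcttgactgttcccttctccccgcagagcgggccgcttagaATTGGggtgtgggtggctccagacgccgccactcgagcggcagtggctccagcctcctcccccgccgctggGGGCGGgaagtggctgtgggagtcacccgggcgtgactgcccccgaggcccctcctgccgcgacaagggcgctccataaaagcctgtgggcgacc

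The Pkdcc stretch is 83.2% G and C, above 99.7% of promoters or level with them, and holds 4 copies of the GC box GGGCGG. The Npy stretch is 69.2% G and C and holds 1 GC box and 1 CCAAT box, read as ATTGG on this strand. The median over 32851 promoters of this length was 52.4%. The 8 promoters did not share 1 motif. GGGCGG was present in 4 of 8, against 32.7% of all promoters, and CCAAT in 3 of 8, against 33.8%. The AP-1 motif TGANTCA was present in 1 of 8, against 6.75%. TATAAA and GGAATG, the core letters of the TATA box and of the TEAD motif, were in 0 of 8, against 12.4% and 12.6% of all promoters. A match is a description of the letters in this window and not a site.

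Library totals ran from 15917454 to 19418665 counts, and 3 counts, the limit that a count of 0 allows, corresponded to 0.152 to 0.192 CPM. Levels are given as CPM, read counts scaled to the library total by the TMM method, with the SD over 3 libraries where a mean is shown. Libraries also differed in how their counts ran with the GC content of the genes, with a Spearman correlation across genes between -0.69 in Remodelin with IFN-γ 1 and 0.55 in control 3. It was 0.12, 0.53 and 0.55 in control and -0.69, -0.12 and -0.26 in Remodelin with IFN-γ, with both signs in the other groups. The labelled cell type was checked first: all 10 macrophage markers were detected, led by the lysozyme gene Lyz2, and 0 of 10 passed the test of the average Remodelin effect. Markers of resident large peritoneal macrophages were low, with Timd4 at 8 counts over all 12 libraries and the factor Gata6 at 16.2 CPM in control.

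To compare genes, levels per length (FPKM) were used, as the authors deposited them. Npy was the highest of the 9 in control, at 349 ± 25.1 FPKM (SD, n = 3), a level at or above that of 98.6% of tested genes. Pkdcc followed at 45.7 ± 7.89 FPKM, then Mgp at 13.8 ± 2.29, Gas1 at 13.4 ± 0.498 and Igfbp3 at 10.3 ± 1.42 FPKM. Spns2 stood at 2.62 ± 0.351 FPKM, Kcnj8 at 1.94 ± 0.209, Aqp1 at 1.90 ± 0.396 and Clca3a2 at 1.77 ± 0.464 FPKM. In that order 3 neighbouring pairs overlapped between libraries: Mgp with Gas1, Kcnj8 with Aqp1, and Aqp1 with Clca3a2. The 9 genes thus spread from the top of the range of expression to below its middle, Clca3a2 being at or above 40.1% of tested genes.

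**Figure D1:**
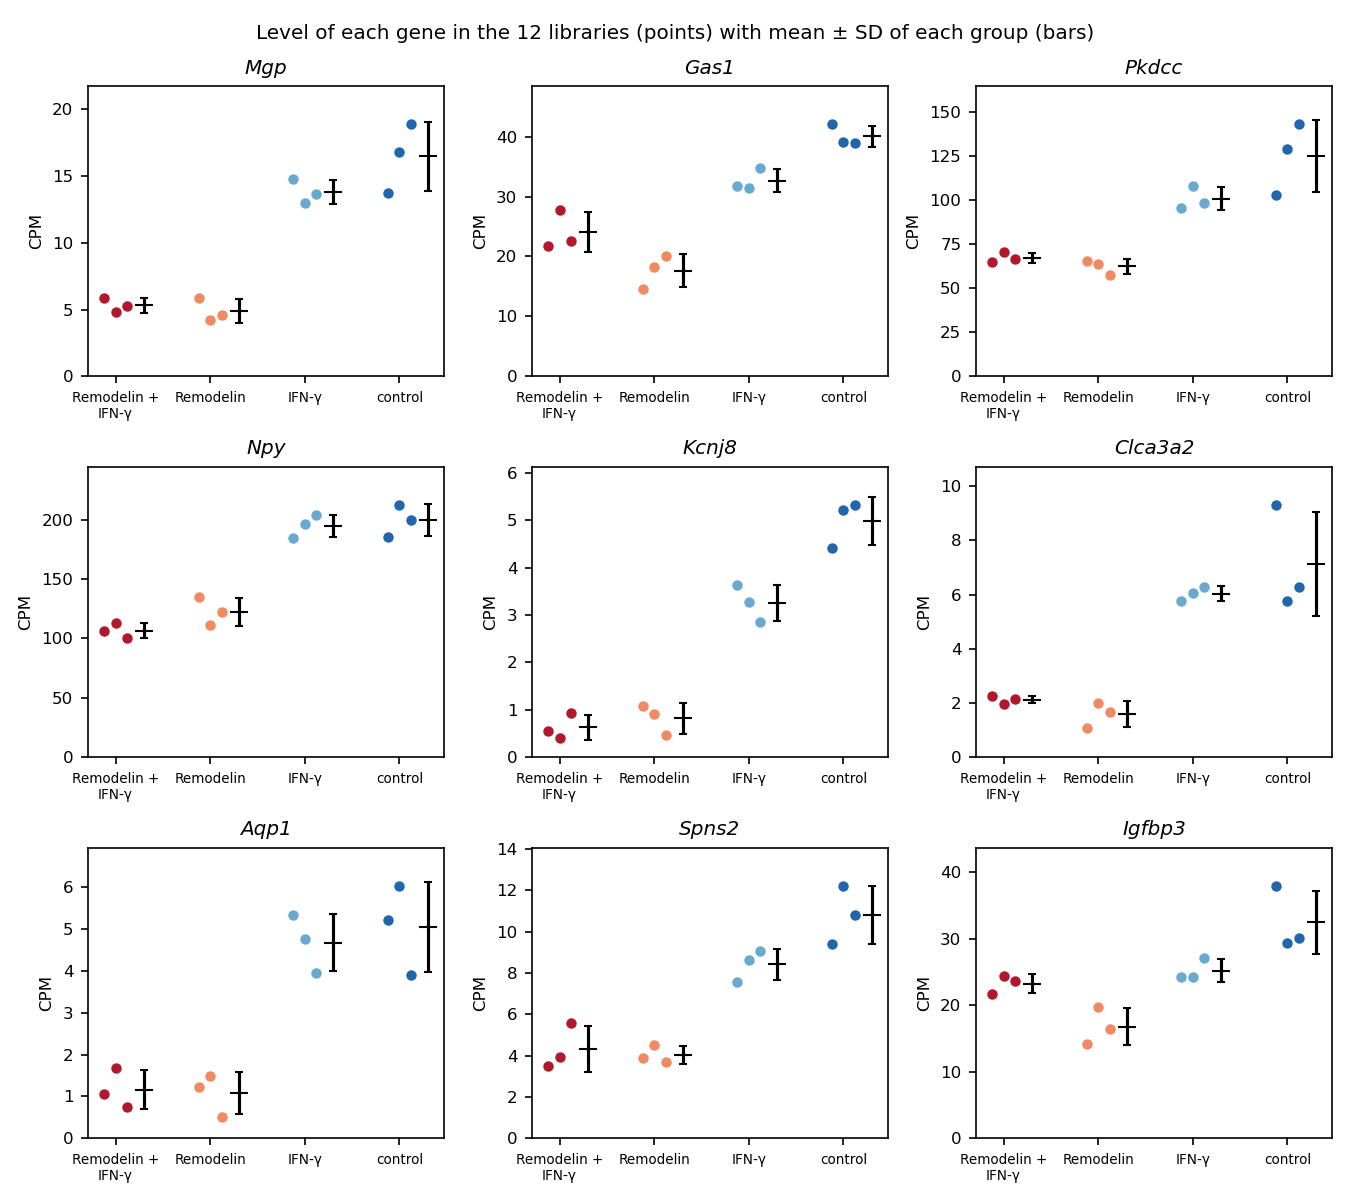
Levels of the 9 genes in CPM (vertical axes from 0) in each library, with Remodelin with IFN-γ and Remodelin left of IFN-γ and control; points are libraries and bars the mean ± SD of 3. Both groups with Remodelin lie below both groups without it in 8 genes, while the Igfbp3 points of Remodelin with IFN-γ (21.7 to 24.5 CPM) overlap those of IFN-γ (24.2 to 27.2 CPM).

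Among the secreted proteins, Mgp had 5.89, 4.21 and 4.57 CPM with Remodelin, against 13.7, 16.8 and 18.9 CPM in control. With IFN-γ present, it had 5.87, 4.80 and 5.24 CPM with Remodelin and 14.8, 13.0 and 13.7 CPM without. The Mgp level with Remodelin was nearly the same with and without the cytokine, and no library with Remodelin reached any library without it. The log2 fold change was -1.75 ± 0.20 (SE) without IFN-γ and -1.38 ± 0.20 with it.

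Npy, the most abundant of the 9, was the least lowered of them in relative terms without IFN-γ. It had 135, 111 and 122 CPM with Remodelin, against 186, 212 and 200.1 CPM in control. Among libraries given IFN-γ, it had 106, 113 and 100.3 CPM with Remodelin and 185, 196 and 204 CPM without. The groups did not overlap in either comparison, and the log2 fold changes were -0.70 ± 0.13 and, with IFN-γ, -0.87 ± 0.13. Npy was the 1 gene of the 9 whose fold change lay further from 0 with IFN-γ than without.

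Pkdcc had 65.6, 63.8 and 57.5 CPM with Remodelin, against 103, 129 and 143 CPM in control. Control 1 was the lowest of the 3 control libraries and still stood clear of every Remodelin library. With IFN-γ, Pkdcc had 64.9, 70.2 and 66.5 CPM with Remodelin and 95.7, 108 and 98.6 CPM without. These correspond to log2 fold changes of -1.0 ± 0.15 and, with IFN-γ, -0.58 ± 0.15. Pkdcc is rich in G and C (64.5% of the transcript, above 99.5% of tested genes or level with them), and with the GC trend of each library removed the value with IFN-γ was -0.31.

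Igfbp3 did not follow the others. It had 14.2, 19.8 and 16.5 CPM with Remodelin, against 38.0, 29.4 and 30.1 CPM in control, and these groups did not overlap (log2 fold change -0.95 ± 0.17). With IFN-γ it had 21.7, 24.5 and 23.6 CPM with Remodelin and 24.2, 24.2 and 27.2 CPM without, so the ranges overlapped and the log2 fold change was -0.12 ± 0.17. The description under which the genes were picked, a clear fall both without and with IFN-γ, is therefore not met by Igfbp3 in the second comparison.

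Gas1, the hedgehog co-receptor, came nearest to Igfbp3 in this respect. It had 14.6, 18.2 and 20.1 CPM with Remodelin, against 42.1, 39.1 and 38.9 CPM in control. In the presence of IFN-γ, Gas1 had 21.7, 27.8 and 22.7 CPM with Remodelin and 31.8, 31.4 and 34.8 CPM without. The groups did not overlap in either comparison, but the gap was narrower with the cytokine: log2 fold changes of -1.18 ± 0.16 and, with IFN-γ, -0.44 ± 0.16. With the GC trend removed the value with IFN-γ was -0.23.

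The largest relative differences were those of the channel genes. Kcnj8, the potassium channel pore, had 17, 16 and 8 counts with Remodelin (1.09, 0.923 and 0.462 CPM), against 87, 96 and 98 counts in control (4.40, 5.21 and 5.32 CPM). With IFN-γ it had 9, 8 and 16 counts with Remodelin (0.562, 0.418 and 0.932 CPM) and 64, 58 and 50 counts without (3.62, 3.28 and 2.86 CPM). The Kcnj8 level with Remodelin was thus 16.6% of the control mean and, with IFN-γ, 19.6% of the IFN-γ mean. The log2 fold changes were -2.59 ± 0.33 and, with IFN-γ, -2.35 ± 0.34, with the wide errors of a gene with few counts.

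Aqp1, the water channel, had 1.22, 1.5 and 0.520 CPM with Remodelin, against 5.21, 6.03 and 3.91 CPM in control. Beside IFN-γ it had 1.06, 1.67 and 0.757 CPM with Remodelin and 5.32, 4.75 and 3.95 CPM without. Its level with Remodelin was 21.4% of the control mean without IFN-γ and 24.9% of the IFN-γ mean with it, and the log2 fold changes were -2.22 ± 0.35 and, with IFN-γ, -1.99 ± 0.34. Aqp1 varied within its groups: Remodelin 3 had 9 counts and Remodelin 2 had 26.

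Clca3a2 had 1.09, 2.02 and 1.68 CPM with Remodelin, against 9.31, 5.76 and 6.30 CPM in control. With IFN-γ it had 2.25, 1.98 and 2.16 CPM with Remodelin and 5.77, 6.05 and 6.30 CPM without. The 4 groups fell into a low and a high pair with nothing between 2.25 and 5.76 CPM, control 1 alone standing above 7 CPM. The log2 fold changes were -2.15 ± 0.26 and, with IFN-γ, -1.50 ± 0.26.

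Spns2, the sphingosine-1-phosphate exporter, had 3.91, 4.50 and 3.70 CPM with Remodelin, against 9.42, 12.2 and 10.8 CPM in control. Among libraries given IFN-γ, Spns2 had 3.50, 3.91 and 5.59 CPM with Remodelin and 7.58, 8.65 and 9.05 CPM without. Again no library with Remodelin reached a library without it, and the log2 fold changes were -1.42 ± 0.22 and, with IFN-γ, -0.96 ± 0.21.

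All 9 genes were lower without overlap for Remodelin against control, where 10.3% of tested genes were, and 8 of 9 in the comparison with IFN-γ present, where 15.6% were. In 8 of 9 genes all 6 libraries with Remodelin lay below all 6 without it, as did 3.42% of tested genes. In the edgeR fit over all genes, 0.846% of tested genes were called without IFN-γ and 0.364% with it. The first set held all 9 genes and the second 5 of them. These counts follow from how the genes were chosen and nothing is read from them. The median log2 fold change of the 9 was -1.42 without IFN-γ and -0.96 with it, beside medians over all tested genes of 0.01 and 0.03. The difference between the fold changes, with IFN-γ minus without, was above 0 in 8 of 9 genes: 0.83 ± 0.23 in Igfbp3, 0.74 ± 0.23 in Gas1, between 0.23 and 0.65 in 6 others, and -0.17 ± 0.19 in Npy. It is made of the comparisons that chose the genes, so it is given without a test. The log2 fold changes in the authors' deposited table have the same signs and lie nearer 0 for each of the 9 genes in both comparisons, for instance -1.46 for Kcnj8 and -1.32 for Mgp in Remodelin against control. For Igfbp3 with IFN-γ, the authors' deposited table gives -0.10.

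**Figure D2:**
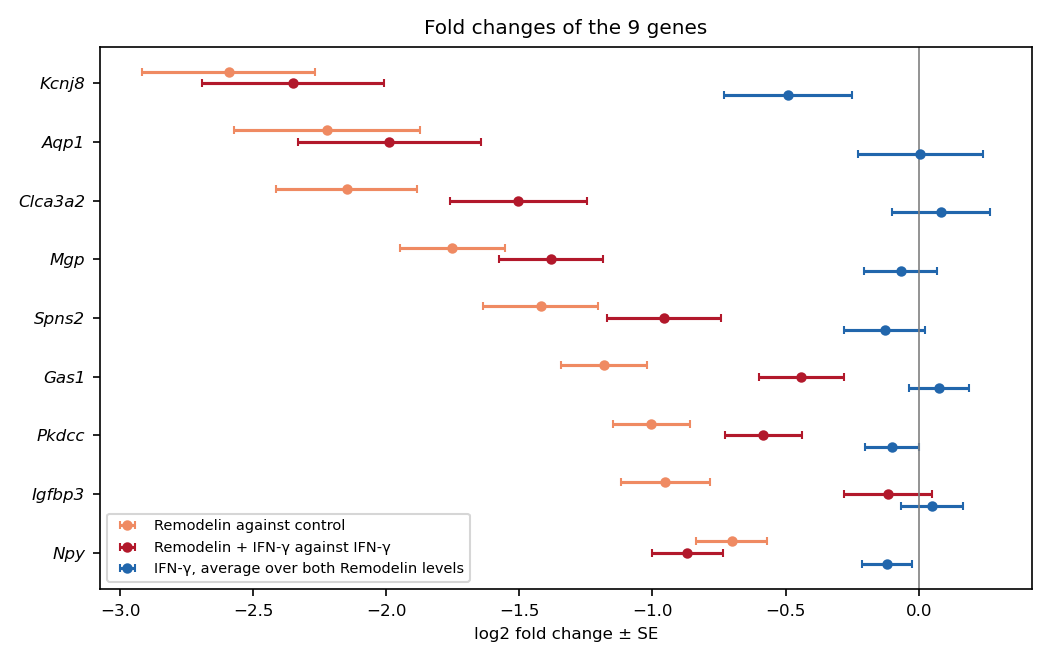
Log2 fold changes ± SE (horizontal axis) of the 9 genes from 1 fit over all 12 libraries, for Remodelin against control, the same with IFN-γ present, and the average IFN-γ effect over both levels of Remodelin. The 2 Remodelin comparisons lie left of 0 for every gene, with Igfbp3 nearest to 0 in the comparison with IFN-γ (-0.12), and the IFN-γ effects lie between -0.49 and 0.08.

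The average effect of IFN-γ over both levels of Remodelin is uncorrelated with the choice of the genes, and it is the test the design allows. None of the 9 genes passed it (0 of 9, against 0.00742% of all tested genes; edgeR quasi-likelihood test, adjusted p between 0.402 and 0.993), and the unadjusted p was under 0.05 in 0 of 9. DESeq2 likewise called 0 of 9. The largest of the 9 in size was Kcnj8, with a log2 fold change of -0.49 ± 0.24 (95% interval -1.05 to 0.07, edgeR adjusted p = 0.402). The others lay between -0.13 in Spns2 and 0.08 in Clca3a2, with intervals from -0.33 to 0.10 in Npy, the narrowest, to -0.53 to 0.55 in Aqp1. Over all genes the same test called 1, the mitochondrial transfer RNA gene mt-Tp, while 1735 genes had an unadjusted p under 0.05 and DESeq2 called 25. With no filter on low counts, edgeR called 325.

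The average hides opposite values at the 2 levels of Remodelin, which are given side by side and without a test, since each shares libraries with a comparison that chose the genes. For IFN-γ against control all 9 log2 fold changes were below 0, from -0.03 to -0.61, with a median of -0.29. For Remodelin with IFN-γ against Remodelin, 2 of 9 were below 0, Npy at -0.20 and Kcnj8 at -0.37, and the median was 0.12. Gas1 (0.45 ± 0.16) and Igfbp3 (0.47 ± 0.17) were the highest there. Of genes known to respond to IFN-γ, 0 of 6 tested ones were called in the average IFN-γ effect. The chemokine Cxcl9 had 0 to 2 counts and the nitric oxide synthase Nos2 had 0 counts in every library. The guanylate-binding protein Gbp2 averaged 11.1 CPM in Remodelin with IFN-γ and 6.34 in Remodelin, and 8.41 in IFN-γ and 6.82 in control, with no overlap in either pair (average log2 fold change 0.56 ± 0.12, edgeR adjusted p = 0.270).

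To see whether relatives and partners of the 9 genes moved with them, 9 lists were drawn up, 1 for each gene, of which 54 of 118 genes in the table passed the count filter. In the Remodelin effect averaged over both IFN-γ levels, 7 of the 54 fell and 2 rose (edgeR quasi-likelihood, adjusted p under 0.05), where 4.8% of all tested genes fell and 2.24% rose. Their median log2 fold change was 0.03, as was that of all tested genes. Without control 1 and Remodelin 1, a pair left out after seeing the data, 19 of the list genes were called, 9 lower and 10 higher. The count over all genes was then 3668, of which 49.6% were lower, in place of 949 (7.04% of tested genes), of which 68.2% were lower. Leaving out 1 library moved the count over all genes to between 298, without control 2, and 1960, without Remodelin 1. The other 45 did not pass the test.

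**Figure D3:**
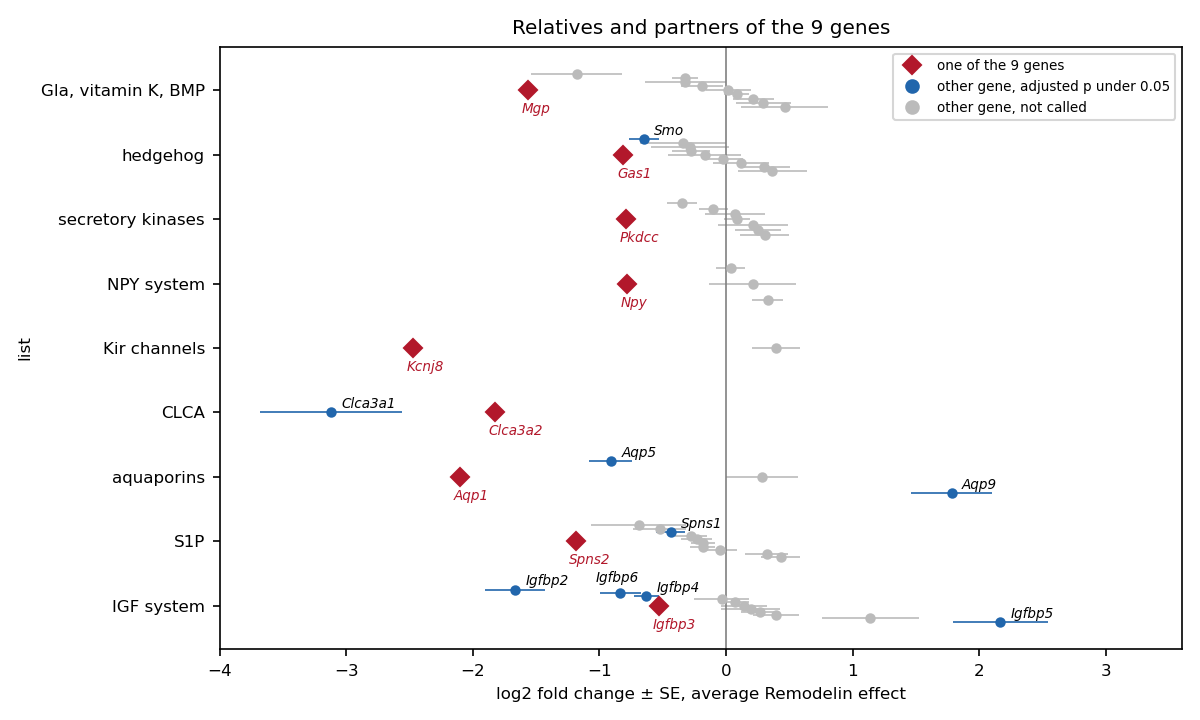
Average Remodelin effect, as log2 fold change ± SE (horizontal axis), of the tested genes in each of 9 lists of relatives and partners; red diamonds are the 9 genes, blue points list genes past the test and grey points the others. Of 54 list genes 7 fell and 2 rose, 4 of these 9 in the IGF list, and the others lie on both sides of 0.

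Of the 11 tested genes of the IGF system 3 fell and 1 rose, all of them binding proteins like Igfbp3 itself. Igfbp4 averaged 121 ± 19.9 CPM in Remodelin with IFN-γ and 124 ± 6.43 in Remodelin, against 178 ± 2.29 in IFN-γ and 202 ± 11.1 in control (log2 fold change -0.63 ± 0.10, edgeR adjusted p = 0.00159). Igfbp2 fell by 1.67 ± 0.24 and Igfbp6 by 0.83 ± 0.16 on the log2 scale, and in Igfbp2, which had 10 to 15 counts in the libraries with Remodelin and 31 to 58 in those without, the libraries did not overlap. Igfbp5 rose by 2.17 ± 0.38, from low counts: 9, 15 and 18 in Remodelin with IFN-γ, and 10, 26 and 27 in Remodelin, against 1, 3 and 2 in IFN-γ and 6, 7 and 10 in control. The growth factor Igf1 (log2 fold change 0.27 ± 0.15) and Igfbp7 (0.07 ± 0.11), which was as abundant per length in control as Igfbp4, did not pass the test.

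Of the channel families, 2 moved with, or against, their member. The CLCA family had 1 tested gene beside Clca3a2, its close paralog Clca3a1, which had 7, 4 and 0 counts in Remodelin with IFN-γ and 1, 1 and 0 in Remodelin, against 6, 14 and 9 in IFN-γ and 39, 21 and 19 in control (edgeR adjusted p = 0.00379). The sequences of these paralogs are alike and the counting could divide their reads, so both genes are uncertain. Of 3 tested aquaporins beside Aqp1, Aqp5, a water channel of glands and airways, fell by 0.91 ± 0.17 on the log2 scale, and Aqp9, which also passes glycerol, rose by 1.78 ± 0.32. Aqp9 averaged 2.66 ± 0.532 CPM in Remodelin with IFN-γ and 1.94 ± 1.24 in Remodelin, against 0.568 ± 0.0965 in IFN-γ and 0.764 ± 0.378 in control.

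In the hedgehog list 1 of 9 tested genes changed: Smo, the receptor-like protein that passes the hedgehog signal on, averaged 16.9 ± 0.620 CPM in Remodelin with IFN-γ and 15.7 ± 0.868 in Remodelin, against 22.6 ± 0.956 in IFN-γ and 28.9 ± 6.20 in control (log2 fold change -0.65 ± 0.12, edgeR adjusted p = 0.00385). The ligands Shh and Dhh had 0 counts in all libraries, Ihh had 14 in total, and the target gene Gli1 had 13. In the sphingosine-1-phosphate list 1 of 10 changed, Spns1, a lysosomal relative of Spns2, with a log2 fold change of -0.44 ± 0.11 (edgeR adjusted p = 0.0306). Spns1 lost the call in 9 of 20 alternatives, with adjusted p up to 0.106 in edgeR, among them the removal of the GC trend. The abundant lyase Sgpl1 (-0.19 ± 0.09) and the receptors S1pr1 (0.32 ± 0.17) and S1pr2 (-0.18 ± 0.10) did not pass the test.

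The other 4 lists had no called gene. Among the secretory pathway kinases, 0 of 7 were called, and Fam20c, a kinase with a higher level per length in control than Pkdcc (93.1 against 45.7 FPKM), had a log2 fold change of -0.35 ± 0.12 (edgeR adjusted p = 0.0805). Among Gla proteins, enzymes of the vitamin K cycle and BMP ligands, 0 of 9 were called. The carboxylase Ggcx, which modifies Mgp, had a log2 fold change of 0.02 ± 0.18, and the ligand Bmp4 one of -1.18 ± 0.36 (edgeR adjusted p = 0.0551). Of the genes around Npy, the 5 receptors Npy1r, Npy2r, Npy4r, Npy5r and Npy6r had 1 count between them over all 12 libraries, and were not tested. The enzymes Cpe (0.33 ± 0.12) and Pam (0.04 ± 0.11), which process peptides of this kind, did not pass the test. Abcc9, the regulatory subunit that joins Kcnj8 in vascular channels, had 13 counts over all 12 libraries and was not tested. It averaged 0 CPM in both groups with Remodelin, 0.114 in IFN-γ and 0.123 in control, all below the limit of 3 counts. Kcnj2 was the 1 tested relative of Kcnj8, at 0.39 ± 0.19.

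Because the 9 genes are known mostly from other cells, marker lists of the cells that a peritoneal preparation could hold were read beside them. In bulk RNA, fewer cells of a type and less RNA per cell cannot be told apart. The summed level of the 9 genes was 228 to 249 CPM in Remodelin with IFN-γ and 226 to 242 in Remodelin, against 374 to 400 CPM in IFN-γ and 411 to 458 in control. Npy made up 48.1% of this sum. That the sum of the 9 separated the libraries follows from how the genes were chosen. The 15 markers of mesothelium, the lining of the cavity, summed to 138 to 187 CPM in Remodelin with IFN-γ and 140 to 175 in Remodelin, against 208 to 221 in IFN-γ and 219 to 246 in control. Of 13 tested mesothelial markers 4 fell (Upk3b, Upk1b, Krt7 and Krt19) and 0 rose, with a median log2 fold change of -0.31, and their part in the result was not tested. Upk3b accounted for much of this, at -1.80 ± 0.13. Without Upk3b the sum was 127 to 170 CPM in Remodelin with IFN-γ and 128 to 163 in Remodelin, against 167 to 176 in IFN-γ and 179 to 199 in control. Libraries with and without Remodelin then overlapped. Ezr made up 42.0% of the sum of the 15 markers and did not pass the test (-0.17 ± 0.13). Without control 2, only Upk3b and Krt7 were still called, since Upk1b then had an edgeR adjusted p of 0.0542 and Krt19 one of 0.158. Krt19 lost the call in 13 of 20 alternatives. The keratin genes Krt18 (0.61 ± 0.20) and Krt8 (0.43 ± 0.17) lay above 0, unlike Krt7 and Krt19, and did not pass the test. Msln (0.64 ± 0.30) also lay above 0, and no tested mesothelial marker did so beside Msln, Krt18 and Krt8. Below 0 were Wt1 (-0.24 ± 0.15), Nkain4 (-0.50 ± 0.15), Lrrn4 (-0.39 ± 0.18), Bnc1 (-0.31 ± 0.18) and Gpm6a (-0.21 ± 0.28). Msln and these markers did not pass the test. Calb2 had 0 counts and Muc16 had 10 over all 12 libraries.

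**Figure D4:**
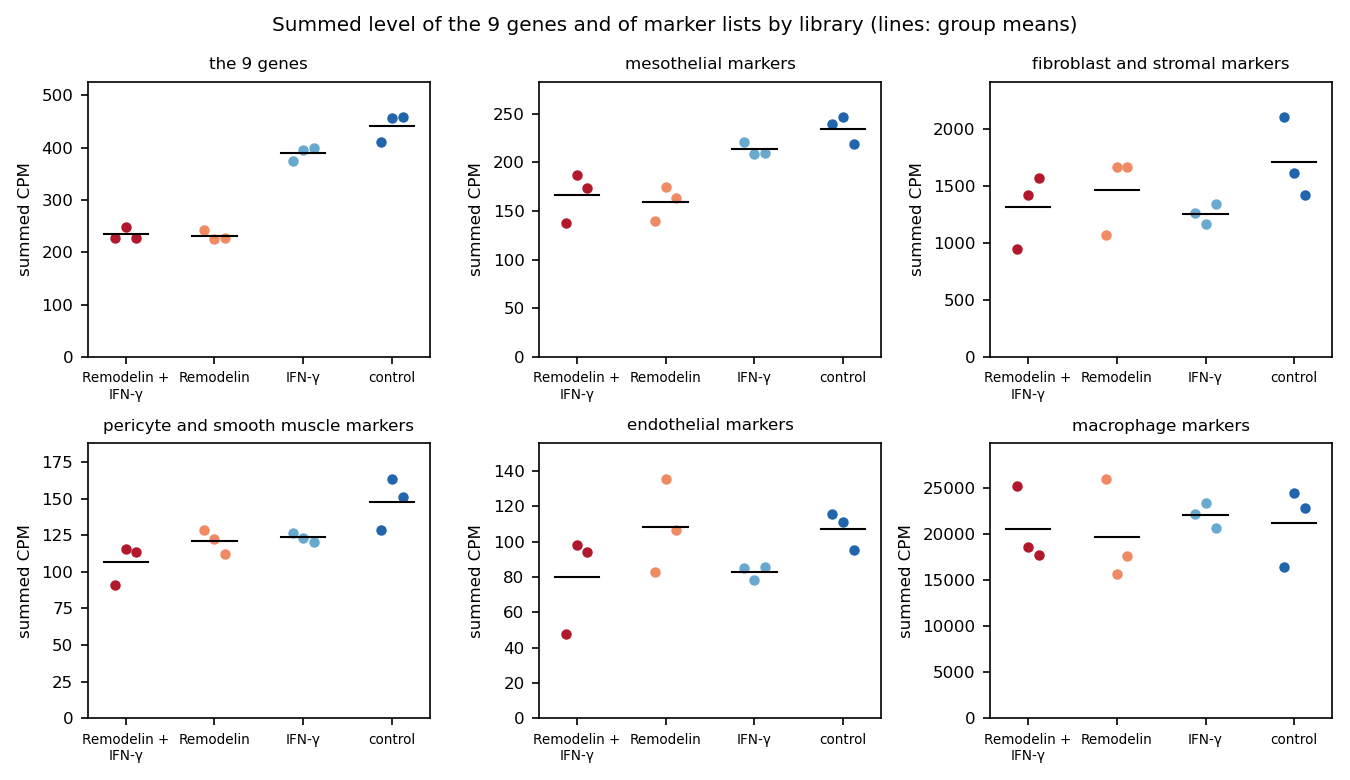
Summed CPM (vertical axes from 0) of the 9 genes and of 5 marker lists in each library, with Remodelin with IFN-γ and Remodelin left of IFN-γ and control; points are libraries and lines group means. The sums of the 9 genes (226 to 249 CPM with Remodelin, 374 to 458 without) and, of the lists shown, of the mesothelial markers separate the libraries with and without Remodelin, while those of fibroblast, pericyte, endothelial and macrophage markers overlap. Without Upk3b, which is not drawn apart, the mesothelial sums overlap too (up to 170 CPM with Remodelin, from 167 without). The separation by the sum of the 9 genes follows from how they were chosen.

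Fibroblast, pericyte and endothelial marker sums overlapped between libraries with and without Remodelin. Fibroblast markers summed to 945 to 1574 CPM in Remodelin with IFN-γ and 1071 to 1665 in Remodelin, against 1170 to 1345 in IFN-γ and 1417 to 2101 in control, and 1 of 12 tested ones fell, the collagen gene Col3a1 (-0.93 ± 0.17, edgeR adjusted p = 0.00377). Pericyte and smooth muscle markers summed to 91.0 to 116 CPM in Remodelin with IFN-γ and 112 to 129 in Remodelin, against 121 to 127 in IFN-γ and 129 to 163 in control, with 0 of 4 called. The pericyte gene Rgs5, often found with Kcnj8, had 8 counts in total and Higd1b had 0. Endothelial markers, 93.1% of them Vwf, summed to 47.7 to 98.0 CPM in Remodelin with IFN-γ and 82.8 to 135 in Remodelin, against 78.0 to 85.4 in IFN-γ and 95.0 to 116 in control, with 0 of 4 called. Pecam1 had 20 counts, Cdh5 had 50 and Emcn had 0 over all 12 libraries. Red cell markers summed to at most 1.77 CPM in Remodelin with IFN-γ, 0.116 in Remodelin and 1.42 in IFN-γ, and to 14.9 CPM in the highest control library. Macrophage markers summed to 17709 to 25144 CPM in Remodelin with IFN-γ and 15598 to 25939 in Remodelin, against 20614 to 23364 in IFN-γ and 16442 to 24391 in control.

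Elsewhere single genes moved. The immunoglobulin gene Ighm fell by 0.92 ± 0.14 on the log2 scale among 7 tested B cell markers, and the collagenase Mmp8 fell by 1.30 ± 0.18 among 4 neutrophil markers. Lymphatic endothelial markers, 97.6% of them Pdpn, summed to 111 to 132 CPM in Remodelin with IFN-γ and 111 to 123 in Remodelin, against 157 to 169 in IFN-γ and 135 to 164 in control, without overlap, and their part in the result was not tested. Prox1 had 25 counts and Lyve1 had 8 over all 12 libraries. Pdpn, which macrophages can also express, fell by 0.39 ± 0.10 and lost the call in 8 of 20 alternatives, with edgeR adjusted p up to 0.0795. Ltbp1, of 8 tested large peritoneal macrophage markers, rose by 1.35 ± 0.33 and lost the call in 6 of 19 alternatives, with edgeR adjusted p up to 0.0713. Mast cell markers, low in all libraries, summed to 1.67 to 3.18 CPM in Remodelin with IFN-γ and 2.20 to 3.58 in Remodelin, against 4.18 to 4.41 in IFN-γ and 4.72 to 5.47 in control, so this list too separated the libraries with and without Remodelin. Its 3 tested markers had a median log2 fold change of -1.02 and 0 of 3 were called, and their part in the result was not tested. None of the tested adipocyte (0 of 2), erythroid (0 of 1), T and NK cell (0 of 1) or dendritic cell (0 of 4) markers was called.

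Genes whose pattern over the 12 libraries was most like that of the 9 were sought among genes with a mean of at least 1 CPM, by Pearson's r of log2 CPM, as a description with no test. All points share the 4 groups, so a high r mostly restates the group differences. Among the genes closest to the mean of the 9 were the acid-sensing receptor Gpr132 (r = 0.983), the complement inhibitor Serping1 (0.977), Upk3b (0.976) and Pimreg (0.970). Txnip (0.964), Tmem176b (0.961), the mitotic regulator Cdc20 (0.959), Cd74 (0.958) and Ralgds (0.957) were also among them. Single members had other neighbours. Mgp ran closest to the chitinase-like Chil1 (r = 0.978), Kcnj8 to Cdc20 (0.975), Npy and Spns2 to Ddit4l (0.969) and Aacs (0.968) in that order, and Aqp1 to Arhgap22 (0.966). Pkdcc ran closest to Gpr132 (0.969), Clca3a2 to Serping1 (0.957) and Gas1 to Rnf145 (0.938). Igfbp3 ran closest to the hydroxylase gene Egln3 (0.947), with Gas1 itself the next (0.933).

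Between the 9 genes, r over the 12 libraries had a median of 0.892 over 36 pairs, from 0.582 for Npy with Igfbp3 to 0.958 for Kcnj8 with Spns2. Once each library was set against its own group mean, the median was -0.09, and 15 of 36 pairs were above 0. The high values over the 12 libraries follow from how the genes were chosen. Within groups the pairs had both signs. With 3 libraries a group, these values do not decide whether the genes vary together from library to library. Igfbp3 with Clca3a2 (0.873) and Gas1 with Igfbp3 (0.651) were the highest pairs, and Mgp with Igfbp3 (-0.864) and Npy with Clca3a2 (-0.798) the lowest. In these pairs control 1 and Remodelin 1 weighed much. In control 1, Clca3a2 was 0.41 and Igfbp3 0.23 above the group mean on the log2 scale. Mgp was 0.25 and Pkdcc 0.27 below it there. In Remodelin 1, Clca3a2 was 0.47 and Igfbp3 0.23 below the group mean while Mgp was 0.28 above it. Over the 10 libraries without control 1 and Remodelin 1, the median was 0.09 with 20 of 36 pairs above 0. Igfbp3 with Clca3a2 was then at 0.467 and Mgp with Igfbp3 at -0.532. Other pairs moved away from 0 instead. Npy with Kcnj8 went from -0.166 to -0.898, and Gas1 with Npy from -0.16 to 0.73, the lowest and highest values without those libraries.

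**Figure D5:**
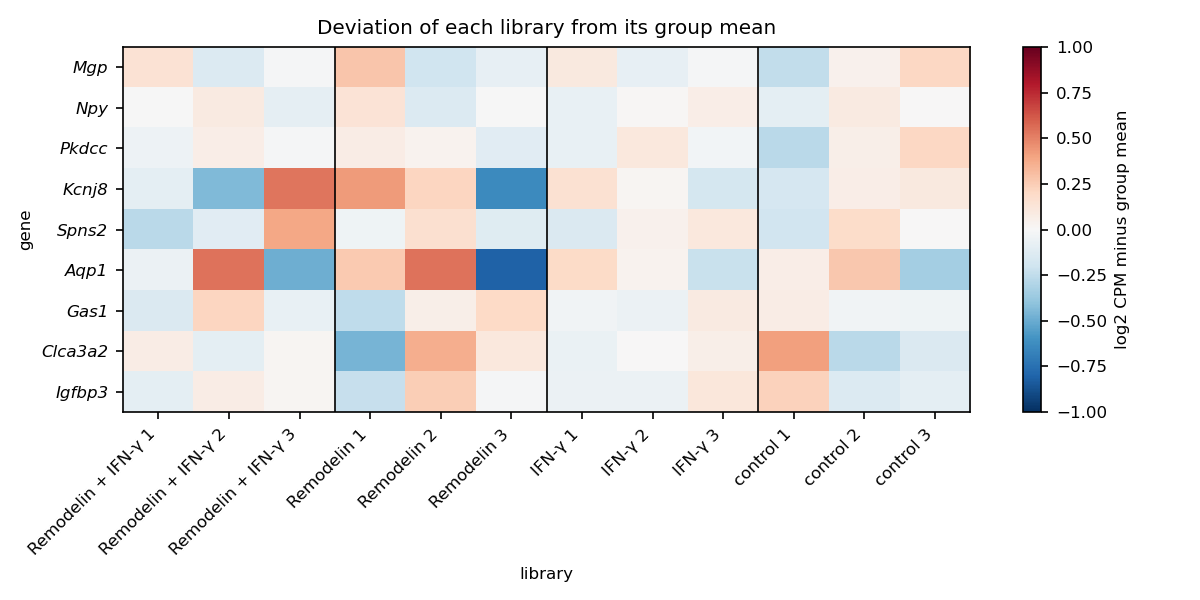
Deviation of each library from its group mean in log2 CPM (colour, red above and blue below) for the 9 genes (rows) in the 12 libraries (columns). Mgp and Pkdcc are below their group mean in control 1 where Clca3a2 and Igfbp3 are above it (0.41 and 0.23), and the strongest colours belong to Aqp1 and Kcnj8, the genes with few counts.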

How the data were processed

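RNA sequencing of mouse peritoneal macrophages gave 12 libraries in 4 groups of 3, grouped and numbered by the labels. The authors deposited raw read counts per gene, with gene lengths, per the file headers, and the submitters' processing notes list featureCounts 1.5.0-p3, HISAT2 2.0.5 and CASAVA 1.8 without roles. The build, annotation and strand setting were not given in the sources used here, and since gene coordinates in the table differ from GRCm38 none are printed. The authors' deposited FPKM gave levels per length. Their log2 fold changes and p-values were read side by side, and their deposited group means were not used.

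The main test was edgeR's quasi-likelihood test (edgeR 4.0.16, limma 3.58.1, R 4.3.3) on the counts, with TMM scaling, the default filter by group (13474 of 55586 genes), 1 fit of all 12 libraries and Benjamini-Hochberg adjustment over all tested genes at 0.05. The common biological coefficient of variation was 18.6%. CPM are scaled by TMM, log2 CPM used a prior count of 2, and errors are the SE of a fold change or the SD of a level. Replicates differed beyond counting noise in every group, so none was merged. The floor of 3 counts covers counting error only.

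The 9 genes, the 9 lists of relatives and the 14 marker lists were chosen with earlier results of these data known. Named were all 9 genes, called list genes (up to 4 a list), an expressed partner, and for likeness 3 genes a member and 10 for their mean. Some items this rule names are not reported here. Values of single IFN-γ response genes and of uncalled markers were chosen after they were seen. On simulated counts the average Remodelin test recovered 93 of 107 changes of 2-fold among 13281 genes. The single comparisons recovered fewer, 54 of 96 for Remodelin against control and 66 of 91 with IFN-γ present. The simulated counts held no GC trend by library. Alternatives were DESeq2 size factors, no filter, 50 reads in 3 libraries, DESeq2 1.42.0, limma-voom, the replicate number as a block, removal of each library's GC trend, a fit of only the 2 compared groups, and leaving out each library. Leaving out control 1 and Remodelin 1 together was chosen after seeing the data.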

Additional observations from a re-analysis of the deposited data

How the results depend on the processing

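No alternative turned the sign of a Remodelin fold change in any of the 9 genes. The genes were chosen for this fall, so nothing is read from the stable sign. Sizes moved by at least the SD within groups in some genes. With the GC trend removed these were Gas1, Pkdcc and Spns2 without IFN-γ, and Gas1, Pkdcc, Npy and Clca3a2 with it. Pkdcc without IFN-γ was then at -0.76 and Clca3a2 with it at -1.71. Without control 1 and Remodelin 1, Mgp, Npy, Clca3a2 and Igfbp3 moved in Remodelin against control. None of the 9 was called for the average IFN-γ effect under any alternative, but its log2 fold change, near 0, changed sign in some genes. With the GC trend removed it was 0.11 in Pkdcc, -0.088 in Clca3a2 and 0.028 in Spns2. With 1 library left out it ran from -0.12 to 0.011 in Mgp, from -0.018 to 0.21 in Clca3a2 and from -0.00307 to 0.12 in Igfbp3, the sign turning without Remodelin 1. For Aqp1 it was -0.014 with DESeq2 size factors, -0.015 with DESeq2, -0.00188 with no filter, and -0.18 to 0.17 with 1 library left out. Counts of called genes moved more. Remodelin against control called 114 genes (77.2% lower), against 283 with no filter (50.2% lower), 269 with DESeq2 (65.1% lower), 183 with the GC trend removed (65.6% lower), 22 with the 2 groups alone (81.8% lower), 1853 without control 1 and Remodelin 1 (44.7% lower), and 20 to 216 with 1 library left out. Remodelin with IFN-γ against IFN-γ called 49 (61.2% lower), against 271 with no filter (57.9% lower), 264 with DESeq2 (65.2% lower), 83 with the 2 groups alone (74.7% lower), 464 without control 1 and Remodelin 1 (76.1% lower), and 10 to 144 with 1 library left out. The average Remodelin effect called 949 (68.2% lower), against 1406 with no filter (44.7% lower), 1378 with DESeq2 (56.2% lower), 3668 without control 1 and Remodelin 1 (49.6% lower), and 298 to 1960 with 1 library left out. The average IFN-γ effect called 1, against 325 with no filter, 25 with DESeq2, and 0 to 4 with 1 library left out. List genes called for Remodelin numbered 9, against 19 without control 1 and Remodelin 1, and 8 to 12 with 1 library left out. The causes of these shifts were not tested.

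Same-numbered libraries deviated from their group means with r between -0.547 and 0.261 over 18 pairs, of which 5 were over 0.1. The labels do not say whether the numbers pair the libraries, and these values do not decide it. With the replicate block the counts were 58 for Remodelin against control, 24 with IFN-γ and 578 for the average Remodelin effect. Kcnj8, Aqp1 and Clca3a2 rest on 8 to 38 counts a library with Remodelin, which limits the precision of their fold changes.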
